A study of Mus musculus with 22 samples.

Results

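The 10 homozygous libraries among 22 libraries of mouse spinal cord carry titles with 3 different leading numbers, and they are compared here by that number within 1 genotype. All 22 were made from whole spinal cord of mice 7 months old on a mixed B6N;B6J background. The E196K allele of Yars changes 1 residue of the cytosolic tyrosyl-tRNA synthetase, the enzyme that loads tyrosine onto its transfer RNA, and the groups are WT (6 libraries), heterozygous (HET, 6) and homozygous E196K/E196K (HOM, 10), with no treatment named. Of the homozygous libraries, 5 have titles that start with 39992 (HOM 1 to HOM 5) and 5 have titles that start with 40411 (HOM 6 to HOM 8) or 40412 (HOM 9 and HOM 10). The 39992 set also holds WT 1, whereas 40411 holds WT 2, WT 3 and HET 1, and 40412 holds WT 4 to WT 6 and HET 2 to HET 6. What the leading number stands for, the sex of the mice and whether each library is a separate mouse are not given, so p-values measure only the spread between these libraries. The comparison asks how far libraries of the same genotype differ with the leading number, in genes that follow cord position and time of day as well as across all genes.

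Hox genes, which encode homeodomain transcription factors, are expressed in overlapping domains along the body axis, and their paralogue number follows position: low numbers are transcribed from the neck down, and higher numbers only toward the lumbar and sacral cord. Clock genes oscillate over the day in nearly every tissue: Arntl and Clock encode the activators, Per and Cry genes their repressors, Nr1d1 and Nr1d2 repress Arntl, and Dbp, Tef and Hlf encode output factors that bind the D-box. Motor neurons, whose cell bodies lie in the ventral horn, contribute cholinergic genes such as Chat and the neurofilament genes Nefl, Nefm and Nefh. In whole tissue, fewer cells of a type and less RNA per cell cannot be told apart.

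Expected counts per library ran from 30748120 to 37150705 in the 39992 libraries and from 26430331 to 38343500 in the 40411 and 40412 libraries, with means of 32928639 (SD 2611235, n = 5) and 33008253 (SD 4693883, n = 5). Levels are given as CPM, counts per 1000000 counts of the library, scaled by TMM (trimmed mean of M-values) over all 22 libraries. Xist and Y-linked transcripts were not spread evenly. HOM 1, HOM 2, HOM 5 and HOM 10 had Y-linked transcripts (144 to 157 CPM summed over the list) and Xist under 0.4 CPM, while the other 6 had Xist at 419 to 633 CPM, so 3 of 5 libraries on one side and 1 of 5 on the other were of the first kind. No pair of libraries had identical counts. The labelled tissue was checked with Chat, the acetylcholine-synthesising enzyme of motor neurons, which was read in all 10 at 13.2 to 24.4 CPM, and markers of sensory ganglia summed to 8.57 to 11.6 CPM over a list of 12 genes, with Mrgprd at 0 in every one of them.

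HOM 3 stood apart from the other 9 homozygous libraries. It held 495 CPM of Prx, the gene of the myelin protein periaxin in peripheral nerve, where the others held 0.506 to 1.07 CPM. Summed over 16 peripheral myelin and Schwann cell genes, HOM 3 reached 4165 CPM, and the other homozygous libraries 762 to 984 CPM. The fibroblast list summed to 941 CPM in HOM 3 and 389 to 462 CPM in the rest, and the neutrophil list to 457 CPM against 18.7 to 43.2 CPM. Its Hox genes also differed from those of its own side. Hoxc8 was at 8.33 CPM in HOM 3 and 32.4 to 40.6 CPM in the other 9, whereas Hoxd11 was at 35.2 CPM against 8.03 to 16.5 CPM and Hoxc12 at 12.4 CPM against 1.41 to 5.45 CPM. The comparison was therefore made with HOM 3 (10 libraries) and without it (9 libraries).

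With all 10 libraries, 5 of 16620 genes tested differed between the 39992 libraries and the 40411 and 40412 libraries at an adjusted p below 0.05 (0.0301% of genes), 2 higher in 39992 (0.012%) and 3 lower (0.0181%). A gene is called when its Benjamini-Hochberg adjusted p from edgeR's quasi-likelihood test is below 0.05. The 2 that were higher are Hoxc10 and Hoxa10, and the 3 that were lower are Cd109, C4b and Pdk4. Without HOM 3, 62 of 16754 genes were called (0.37%), 26 higher in 39992 (0.155%) and 36 lower (0.215%), and these 62 included the 5. At an unadjusted p below 0.05 there were 2170 genes (13% of those tested) in the 9 libraries, where 838 would be reached by chance alone if no gene differed. Of all genes tested, 4.7% had no overlap between the 4 and the 5 libraries, the share against which statements on overlap without HOM 3 stand. No such share is given for 5 against 5 libraries, so statements on overlap with HOM 3 have none beside them. The median difference over all genes was 0.00 on the log2 scale, and 48.9% of genes were higher in 39992.

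Hoxc10 and Hoxa10, Hox genes of the lumbar cord, had the 2 smallest p-values in both analyses. Hoxc10, a regulator of lumbar motor neuron identity, was at 52.8, 55.6, 57.6, 55.8 and 50.9 CPM in HOM 1 to HOM 5 and at 35.4, 34.0, 37.8, 34.4 and 37.0 CPM in HOM 6 to HOM 10. The sets do not overlap, and HOM 3 lies with its own side. The log2 difference was 0.59 (SE 0.0455, a 1.5-fold level, adjusted p = 1.14e-05) in 9 libraries and 0.61 (SE 0.047, adjusted p = 9.16e-05) in 10. Hoxa10, its paralogue on chromosome 6, was at 36.2, 41.9, 40.4, 38.98 and 35.4 CPM in the 39992 libraries and at 23.2, 25.4, 24.8, 23.3 and 26.2 CPM in the others, a log2 difference of 0.63 (SE 0.0564, adjusted p = 4.55e-05) without HOM 3 and 0.65 (SE 0.0559, adjusted p = 0.000179) with it. Both genes were called whichever single homozygous library was left out.

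Hoxa11 and Hoxd9 were called only in the 9 libraries. Hoxa11 was at 5.02, 5.66, 6.08 and 4.32 CPM in HOM 1, 2, 4 and 5, at 11.3 CPM in HOM 3, and at 2.56 to 3.77 CPM in HOM 6 to HOM 10, with a log2 difference of 0.80 (SE 0.124, adjusted p = 0.0122) without HOM 3 and 1.1 (SE 0.247, adjusted p = 0.275) with it. Its groups do not overlap with or without HOM 3, and HOM 3 lies far above the rest of its side. Hoxd9 was at 23.0, 26.7, 28.6 and 25.3 CPM in HOM 1, 2, 4 and 5, at 17.5 CPM in HOM 3 and at 15.3 to 18.6 CPM on the other side (log2 difference 0.56, SE 0.0677, adjusted p = 0.00136 without HOM 3, and 0.47, SE 0.112, adjusted p = 0.285 with it). Here HOM 3 falls among the 40411 and 40412 libraries. Hoxd9 was called whichever of the 9 libraries was left out, and Hoxa11 was lost without HOM 2 (adjusted p = 0.0657). Hoxd10 was at 20.3 to 28.5 CPM in the 4 libraries, 47.3 CPM in HOM 3 and 11.2 to 19.9 CPM in the others, a log2 difference of 0.83 (SE 0.169) that did not pass the test (adjusted p = 0.107, and 0.302 with HOM 3).

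All 4 Hox genes called belong to paralogue groups 9 to 11. Over all genes tested in 9 libraries, 0.155% were called higher, 0.215% were called lower and 48.9% were higher. The share at an unadjusted p below 0.05 was 13%, against which the counts by paralogue group are to be read. In 9 libraries all 6 genes of groups 10 and 11 were higher in 39992 (median log2 difference 0.61, 3 called), all 4 of group 9 were higher (median 0.16, 1 called), and 13 of 17 of groups 3 to 8 were higher (median 0.07, 0 called by edgeR, 3 at an unadjusted p below 0.05). All 3 tested genes of groups 12 and 13 were lower, with a median of -0.61 and none called (0 at an unadjusted p below 0.05). Their levels were low and scattered: Hoxc12 was at 3.93, 3.77, 2.204 and 1.41 CPM in HOM 1, 2, 4 and 5 and at 3.44 to 5.45 CPM in HOM 6 to HOM 10. The summed level of groups 10 and 11 was 125 to 156 CPM in the 4 libraries, 212 CPM in HOM 3 and 84.8 to 110 CPM in the other 5. An exact two-sided permutation test over libraries gave p = 0.00794 for 5 against 5, the smallest that design can give, and 0.111 after adjustment over 14 library measures. Without HOM 3 it gave p = 0.0159, again the smallest possible, and 0.0741 after adjustment.

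**Figure D1:**
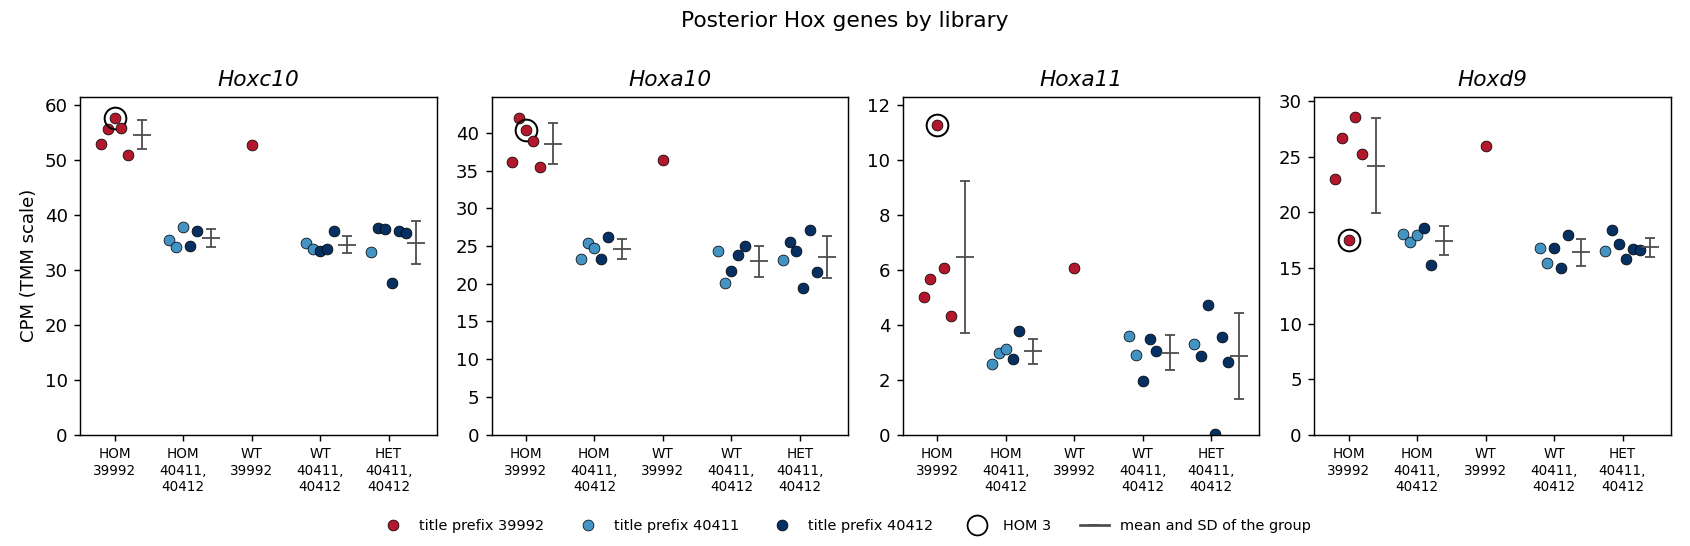
Level of 4 posterior Hox genes in each library (CPM, y axis from 0), by genotype and title prefix. Points are libraries, bars the group mean and SD, and the ring marks HOM 3. Hoxc10 is at 50.9 to 57.6 CPM in the 39992 homozygous libraries, at 52.7 CPM in WT 1 and at 27.6 to 37.8 CPM in the 16 libraries of the other prefixes.

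WT 1, the single wild type library of the 39992 set, held these genes at levels within the range of the homozygous libraries of that set. Hoxc10 was at 52.7 CPM in WT 1 and at 33.3 to 37.1 CPM in WT 2 to WT 6, Hoxa10 at 36.4 CPM against 20.1 to 25.0 CPM, and Hoxd9 at 26.0 CPM against 15.0 to 18.0 CPM. Between genotypes, within 40411 and 40412, HOM minus WT was 0.05 on the log2 scale for Hoxc10 (adjusted p = 0.846) and 0.11 for Hoxa10 (adjusted p = 0.82), and neither passed. Among the heterozygous libraries, which are all from 40411 and 40412, Hoxc10 ran from 27.6 to 37.6 CPM. HET 4 had the least Hox 10 and 11 RNA of all 22, with 49.1 CPM summed and Hoxa11 at 0.0268 CPM. Xist was at 490 CPM in WT 1 and under 0.4 CPM in HOM 1, HOM 2 and HOM 5. Sex is not given, and its part in these Hox levels was not tested beyond the fit with the Xist level described below.

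Some genes of the motor neuron list were called higher in the 39992 libraries once HOM 3 was left out. Of 19 genes tested from the cholinergic and motor neuron list, 18 were higher, with a median log2 difference of 0.18, and 6 were called higher: Chodl, Nefl, Nefm, Nefh, Mmp9 and Spp1. Over all genes tested, 0.155% were called higher and 48.9% were higher, and the other 13 genes of the list did not pass. With HOM 3, 17 of 19 were higher, the median was 0.10 and 0 were called by edgeR (3 at an unadjusted p below 0.05, a share that was 9.06% over all genes). The summed level of the list was 5850 to 6200 CPM in HOM 1, 2, 4 and 5, 4410 CPM in HOM 3 and 5150 to 5510 CPM in HOM 6 to HOM 10. Mmp9, a protease of fast motor neurons, is also on the neutrophil list, and Spp1, which encodes osteopontin, is also made by microglia. Snap25, a neuronal gene that is not on the list, was also called higher by edgeR without HOM 3 (log2 difference 0.17, adjusted p = 0.0332). With HOM 3 its adjusted p was 0.596. Whether these differences belong to motor neurons or to neurons more broadly was not tested.

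Chodl, a surface protein of fast motor neurons, was at 23.1, 23.7, 23.4 and 24.2 CPM in HOM 1, 2, 4 and 5, at 10.6 CPM in HOM 3 and at 14.6, 17.6, 14.9, 17.5 and 18.2 CPM in HOM 6 to HOM 10. The 4 libraries lie above all others of the genotype and HOM 3 lies below them all. The log2 difference was 0.51 (SE 0.0645, 1.42-fold, adjusted p = 0.00204) without HOM 3 and 0.34 (SE 0.205, adjusted p = 0.655) with it. Nefl, the light neurofilament subunit, was at 1873, 1830, 1799 and 1903 CPM against 1564, 1603, 1634, 1673 and 1689 CPM, with HOM 3 at 1354 CPM, and its log2 difference of 0.18 (SE 0.0287, adjusted p = 0.0138) is small but larger than the spread within each set. Nefm (0.18, adjusted p = 0.02) and Nefh (0.19, adjusted p = 0.0383), the medium and heavy subunits, differed by like amounts. With HOM 3, the adjusted p was 0.714 for Nefl, 0.778 for Nefm and 0.775 for Nefh.

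Mmp9 and Spp1 did not overlap between the sides with or without HOM 3. Mmp9 was at 13.5, 15.2, 14.7 and 15.0 CPM in HOM 1, 2, 4 and 5, 25.7 CPM in HOM 3 and 10.1 to 12.3 CPM on the other side (log2 difference 0.35, SE 0.0669, adjusted p = 0.0332 without HOM 3, and 0.56, SE 0.17, adjusted p = 0.386 with it). Spp1 was at 91.2 to 98.8 CPM in the 4 libraries, 108 CPM in HOM 3 and 78.1 to 89.6 CPM in the others (0.20, SE 0.0417, adjusted p = 0.0454 without HOM 3, and 0.25, SE 0.0518, adjusted p = 0.152 with it). The neutrophil list, which shares Mmp9, summed to 23.6 to 43.2 CPM in the 4 libraries. It summed to 18.7 to 23.8 CPM in HOM 6 to HOM 10 and to 457 CPM in HOM 3. S100a8, a defining neutrophil gene, was at 0.0564 to 3.74 CPM in these 9 libraries and at 70.0 CPM in HOM 3. Lyz2, on the microglia and macrophage list, was at 7.68 to 11.9 CPM in the 9 and at 94.1 CPM in HOM 3. The part of such transcripts in the Mmp9 and Spp1 values was not tested. Slc10a4, a vesicular protein of cholinergic neurons that is not on the list, was also called, at 20.4 to 24.8 CPM against 16.3 to 17.8 CPM with HOM 3 at 13.5 CPM (0.42, SE 0.0581, adjusted p = 0.00474, and 0.543 with HOM 3). Prph, which encodes peripherin, was at 41.0 to 51.5 CPM against 32.5 to 40.6 CPM and did not pass (adjusted p = 0.0765), nor did Chat, at 20.7 to 24.4 CPM against 19.3 to 22.1 CPM (adjusted p = 0.372). Chodl and Slc10a4 were called whichever of the 9 libraries was left out. The call was lost for Nefl without HOM 2, 5 or 7, for Nefm without HOM 2, 5, 6 or 7, for Nefh and Mmp9 without HOM 2, 4, 5, 6 or 7, and for Spp1 without HOM 1, 2, 4, 5, 6 or 7.

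Chodl was then set beside the wild type libraries. It was at 35.8 CPM in WT 1, 19.6 to 26.4 CPM in WT 2 to WT 6 and 22.8 to 34.0 CPM in the heterozygous libraries, so all 5 homozygous libraries of 40411 and 40412 lay below every wild type and heterozygous library, and all 5 of 39992 lay below WT 1. The summed motor neuron list overlapped between HOM 6 to HOM 10 (5150 to 5510 CPM) and WT 2 to WT 6 (5440 to 6030 CPM). The heterozygous libraries, at 5900 to 6320 CPM, lay above HOM 6 to HOM 10. WT 1, at 6480 CPM, lay above all homozygous libraries of 39992 (4410 to 6200 CPM). Within 40411 and 40412, HOM minus WT was -0.39 on the log2 scale for Chodl (adjusted p = 0.0783) and -0.12 for Nefl (adjusted p = 0.546), and neither passed. The prefix difference in HOM less that in WT was -0.17 for Chodl (p = 0.364, adjusted p = 1), with 1 wild type library in the 39992 set.

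**Figure D2:**
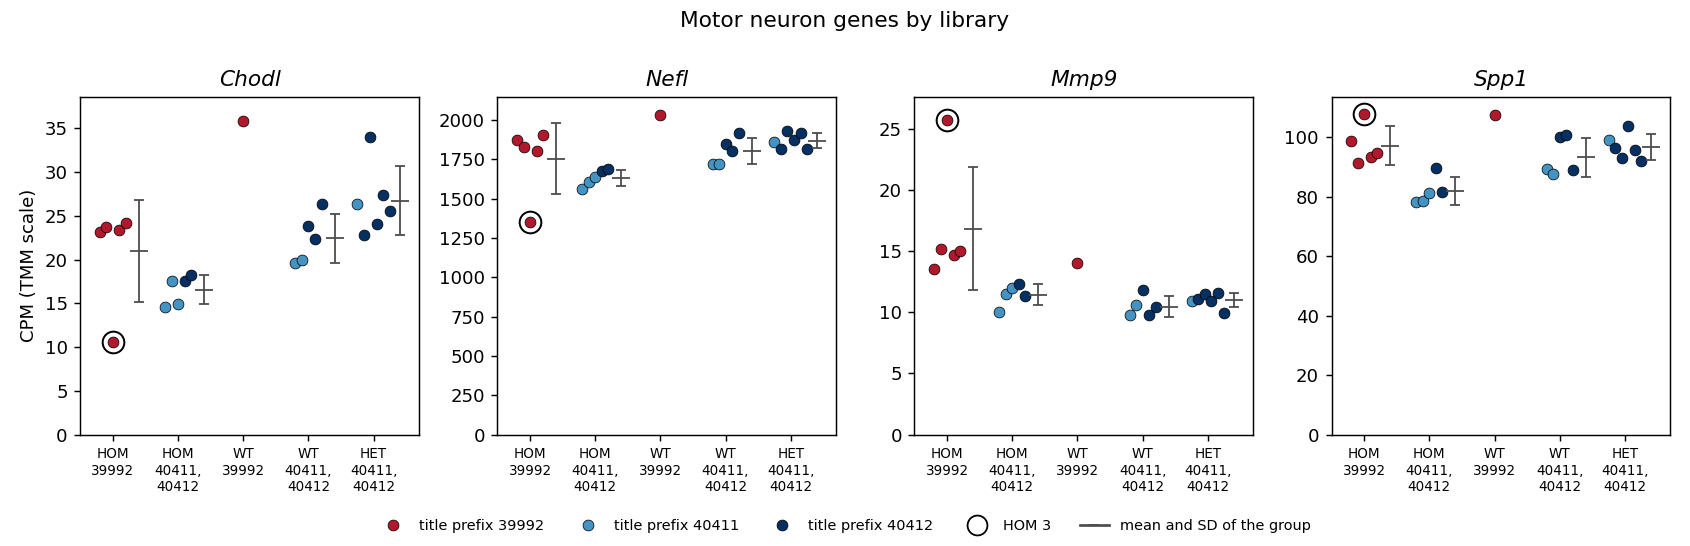
Level of 4 genes of the motor neuron list in each library (CPM, y axis from 0), by genotype and title prefix. Points are libraries, bars the group mean and SD, and the ring marks HOM 3. Chodl and Nefl separate the 4 other 39992 homozygous libraries from HOM 6 to HOM 10 and HOM 3 lies lowest, whereas for Mmp9 HOM 3 lies highest, at 25.7 CPM.

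Clock genes differed in both directions. In 9 libraries, 12 of 20 clock genes had an unadjusted p below 0.05, against 13% of all genes tested. Of these 12, 8 were higher and 4 lower in 39992, and 2 were called. In 10 libraries 12 had an unadjusted p below 0.05, against 9.06% of all genes tested, and 0 were called by edgeR. Because the genes of an oscillator can move together, the 12 cannot be counted as independent of each other. Hour of collection and feeding are not given in the labels.

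The called genes were Per3, a period gene, and Arntl, the gene of the activator BMAL1. Per3 was at 63.1, 65.8, 73.8, 59.0 and 65.3 CPM in HOM 1 to HOM 5 and at 52.6, 54.3, 51.9, 49.1 and 51.3 CPM in HOM 6 to HOM 10, with no overlap and a log2 difference of 0.28 (SE 0.0425, adjusted p = 0.0103) without HOM 3 and 0.34 (SE 0.0553, adjusted p = 0.0585) with it. Arntl was lower in 39992, at 10.7, 12.2, 12.6, 13.2 and 11.9 CPM against 15.1, 15.4, 14.3, 14.9 and 15.8 CPM, a log2 difference of -0.33 (SE 0.0642, adjusted p = 0.0332) without HOM 3 and -0.31 (SE 0.0611, adjusted p = 0.12) with it. WT 1 was at 58.2 CPM for Per3, above the 46.7 to 55.1 CPM of WT 2 to WT 6, and at 13.6 CPM for Arntl, within their 12.4 to 15.995 CPM. Without HOM 2 the call of Per3 was lost (adjusted p = 0.0539), and that of Arntl was lost without HOM 1, 2, 5, 6 or 7.

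Dbp, an output factor known for a wide daily swing, was at 53.0, 53.0, 61.6, 60.9 and 58.3 CPM in HOM 1 to HOM 5 and at 34.5, 37.5, 32.0, 46.8 and 39.3 CPM in HOM 6 to HOM 10. The sets do not overlap, and WT 1, at 56.7 CPM, lay above all 16 libraries of the other prefixes, which ran from 32.0 to 47.7 CPM. The log2 difference of 0.56 (SE 0.0991) just missed the threshold in 9 libraries (adjusted p = 0.0569) and in 10 (0.60, SE 0.0911, adjusted p = 0.0585). Nr1d2, which encodes REV-ERB beta, was at 153 to 171 CPM against 116 to 147 CPM (0.27, adjusted p = 0.0695), and Nfil3, a repressor at the D-box, was at 5.05 to 5.95 CPM in all 5 libraries of 39992 against 6.28 to 6.98 CPM (-0.27, adjusted p = 0.149). The groups of both genes do not overlap. Per1 showed no such separation, at 48.4 to 58.6 CPM against 40.7 to 65.4 CPM, and neither did Cry1, at 15.7 to 19.0 CPM against 15.9 to 18.2 CPM.

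The promoters of Per3, the clock gene called higher, and Ciart are shown because each holds more than 1 match to an element that clock proteins are known to bind. Of 20 clock genes, 17 were found in the RefSeq promoter table (GRCm38.p6), whose windows run from 250 bases before to 50 bases after each start. The E-box CACGTG, which reads the same on both strands and is bound by CLOCK and BMAL1, was present in 5 of the 17 (Bhlhe41, Ciart, Cry1, Per1 and Tef) and in 8.09% of the 27025 genes of the table, a gene counting once however many windows it has (7.15% of 32851 windows). The D-box TTATGTAA, searched on both strands (TTACATAA on the other) and not overlapping the E-box, was present in 1 of 17 and in 1.11% of all genes of the table (0.938% of windows). Per3 holds 2 matches to the D-box and Ciart, a repressor of the clock that was at 12.5 to 14.7 CPM against 9.08 to 13.3 CPM (log2 difference 0.33, adjusted p = 0.151), holds 3 E-boxes. Matches are in capitals, Per3 is from chr4:151044616-151044915 and Ciart from chr3:95882179-95882478, both on the minus strand, written 5′ to 3′.
Per3: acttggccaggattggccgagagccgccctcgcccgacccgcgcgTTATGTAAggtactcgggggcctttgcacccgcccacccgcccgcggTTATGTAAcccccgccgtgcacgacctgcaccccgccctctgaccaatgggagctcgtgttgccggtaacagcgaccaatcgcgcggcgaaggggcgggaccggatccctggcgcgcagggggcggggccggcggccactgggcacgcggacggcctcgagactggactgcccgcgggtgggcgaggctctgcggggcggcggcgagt
Ciart: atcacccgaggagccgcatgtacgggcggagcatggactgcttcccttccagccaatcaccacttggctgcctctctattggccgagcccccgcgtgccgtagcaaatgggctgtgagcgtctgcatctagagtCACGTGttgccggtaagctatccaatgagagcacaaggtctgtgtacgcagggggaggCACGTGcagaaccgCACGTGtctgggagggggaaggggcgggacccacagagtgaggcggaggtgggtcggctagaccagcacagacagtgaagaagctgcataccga
Dbp, with the widest separation among these genes, has neither motif in its window, which says only that these letters are not in it.

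**Figure D3:**
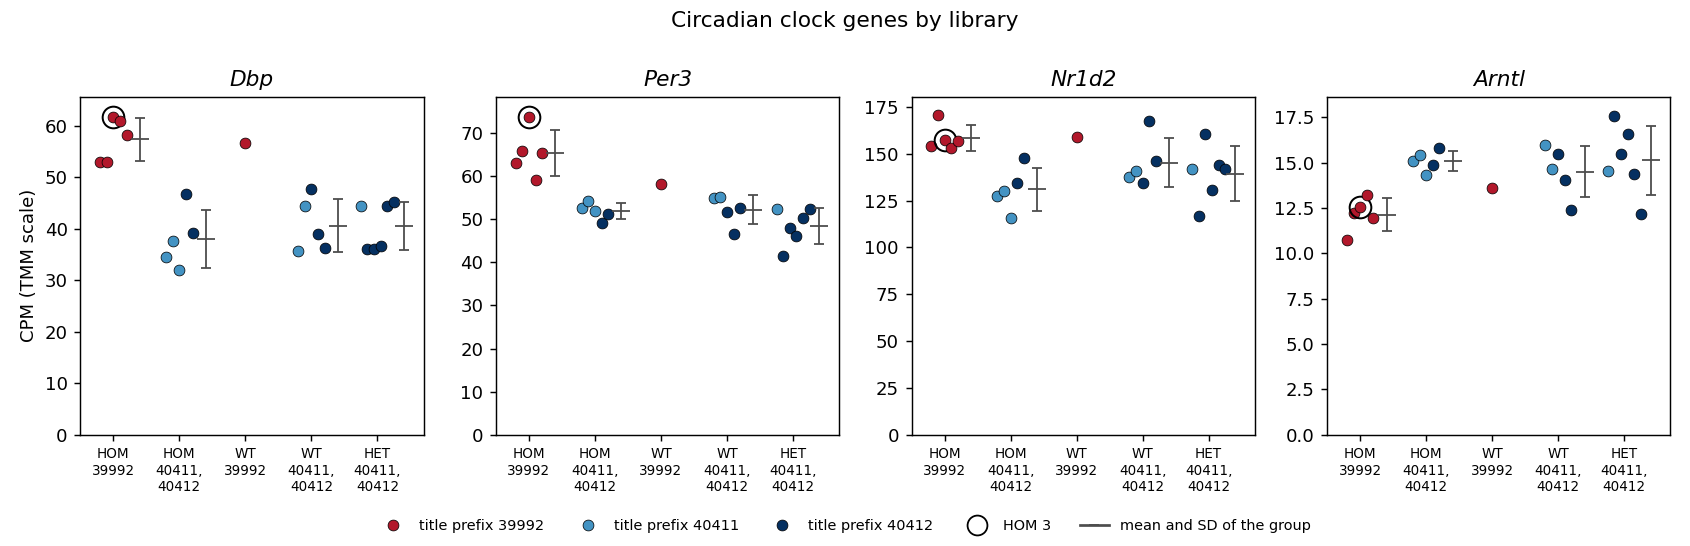
Level of 4 clock genes in each library (CPM, y axis from 0), by genotype and title prefix. Points are libraries, bars the group mean and SD, and the ring marks HOM 3. Dbp and Per3 are higher and Arntl lower in the 5 homozygous libraries of 39992 than in HOM 6 to HOM 10, with no overlap, and Dbp in WT 1 is at 56.7 CPM.

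The 3 genes called lower in 10 libraries were a membrane protein, a complement component and a metabolic kinase. Cd109, a membrane protein that binds TGF-beta, was at 4.83, 4.48, 4.36, 4.38 and 4.45 CPM in HOM 1 to HOM 5 and at 6.61, 6.99, 6.79, 6.79 and 7.54 CPM in HOM 6 to HOM 10, a log2 difference of -0.62 (SE 0.0736, adjusted p = 0.00537) with HOM 3 and -0.62 (SE 0.0788, adjusted p = 0.00204) without it. WT 1 was at 4.33 CPM, below all 16 libraries of 40411 and 40412 (5.83 to 7.65 CPM). C4b, a component of complement made mainly by glia in this tissue, was at 119, 114, 112, 124 and 118 CPM against 182, 188, 168, 174 and 138 CPM (-0.53, SE 0.0698, adjusted p = 0.0242 with HOM 3), and its call was lost when HOM 1, 2, 4, 5, 6 or 8 was left out of the 10. Pdk4, a kinase that turns off pyruvate dehydrogenase and responds to fasting and glucocorticoids, was at 12.7 to 15.6 CPM in the 39992 libraries and 18.3 to 23.2 CPM in the others (-0.48, SE 0.0713, adjusted p = 0.0407 with HOM 3), and was lost without HOM 1, 2, 4, 5, 6 or 7. Without HOM 3, C4b (adjusted p = 0.0279) was lost without HOM 1, 2, 4, 5, 6, 8 or 9, and Pdk4 (adjusted p = 0.0122) without HOM 2.

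Of the genes called only without HOM 3, Col23a1, a membrane collagen, was at 34.4, 32.1, 33.2 and 33.5 CPM against 46.0, 48.8, 47.9, 41.2 and 43.4 CPM (log2 difference -0.45, SE 0.0518, adjusted p = 0.000931), with HOM 3 above both sets at 60.6 CPM. Slc34a3, a phosphate transporter, had the widest difference among the named lower genes, at 1.036, 0.919, 0.601 and 0.80 CPM against 1.34 to 2.51 CPM (-1.19, SE 0.207, adjusted p = 0.0203). Slc17a7, the vesicular glutamate transporter VGLUT1, was at 4.53, 3.62, 4.84 and 5.57 CPM against 5.78 to 7.28 CPM (-0.56, SE 0.112, adjusted p = 0.0383) and at 0.0902 CPM in HOM 3. Ssc5d (-0.84, adjusted p = 0.0332) and Muc3a (-0.58, adjusted p = 0.049) complete the lower genes named by the rule. Among the higher genes was Aldh1a2, which makes retinoic acid in the meninges and in motor neurons, at 2.67, 3.14, 2.64 and 2.75 CPM against 0.911, 1.78, 1.35, 1.07 and 1.53 CPM with HOM 3 at 9.05 CPM (1.07, SE 0.165, 2.1-fold, adjusted p = 0.0122). Zic1, a transcription factor of the dorsal cord, was at 39.97 to 44.6 CPM in all 5 libraries of 39992 against 33.7 to 36.9 CPM (0.24, adjusted p = 0.0228 without HOM 3). Cp and Col4a1 were lower in the 4 libraries (-0.31 and -0.25, adjusted p = 0.02 and 0.0228). With HOM 3, which had 49.4 CPM of Cp and 112 CPM of Col4a1, the differences were 0.31 and 0.21. With HOM 3, the adjusted p was 0.741 for Col23a1, 0.0716 for Slc34a3, 0.693 for Slc17a7, 0.12 for Ssc5d, 0.337 for Muc3a, 0.307 for Aldh1a2 and 0.0585 for Zic1. Col23a1 was called whichever of the 9 libraries was left out. Aldh1a2 was lost without HOM 2, Slc34a3 and Muc3a without HOM 2, 4, 5, 6 or 7, Ssc5d without these or HOM 1, Slc17a7 without HOM 1, 2, 4, 6 or 9, and Zic1 without HOM 1, 2, 4, 6 or 7. Cp was lost without HOM 2, 4, 5, 6 or 7, and Col4a1 without HOM 1, 2, 5, 6 or 7.

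Several lists had most members on one side and no called gene, and their counts without HOM 3 are to be read against 13% of all genes tested at an unadjusted p below 0.05 and 48.9% of genes higher. All 13 mitochondrially encoded genes were higher in 39992 without HOM 3 (median 0.20, 0 called by edgeR, 11 at an unadjusted p below 0.05) and with it (median 0.17, 0 called, 8 at an unadjusted p below 0.05), and the share of counts in them was 5.41% to 6.29% in those 4 libraries against 4.77% to 5.54%, and the part of this share in other results was not tested. An exact two-sided permutation test of that share gave p = 0.0794 (adjusted p = 0.222), and p = 0.0556 (adjusted p = 0.259) with HOM 3. Of 19 microglia genes 18 were lower (median -0.17, 0 called, 11 at an unadjusted p below 0.05), or 15 of 19 with HOM 3 (median -0.15, 0 called, 9 at an unadjusted p below 0.05), with Csf1r, the receptor that microglia need to survive, at 85.0 to 93.5 CPM against 96.7 to 102 CPM (-0.15, adjusted p = 0.0908). For cholesterol synthesis, 4 of 22 genes had an unadjusted p below 0.05 (0 called, median -0.08, 20 lower), and for endoplasmic reticulum chaperones 3 of 19 (0 called, median 0.12, 18 higher), both near the share over all genes. With HOM 3 these were 6 of 22 and 0 of 19, where the share over all genes was 9.06%. Hmgcs1, an early enzyme of cholesterol synthesis, was at 305 to 332 CPM against 335 to 375 CPM (-0.18, adjusted p = 0.0548). Immediate early genes, which answer to activity and handling, had a median of 0.00 with 11 of 22 higher, and none had an unadjusted p below 0.05. Of 11 tested genes known to differ between the B6N and B6J substrains, 3 were higher and 8 lower, and 0 were called (3 at an unadjusted p below 0.05, or 2 with HOM 3).

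**Figure D4:**
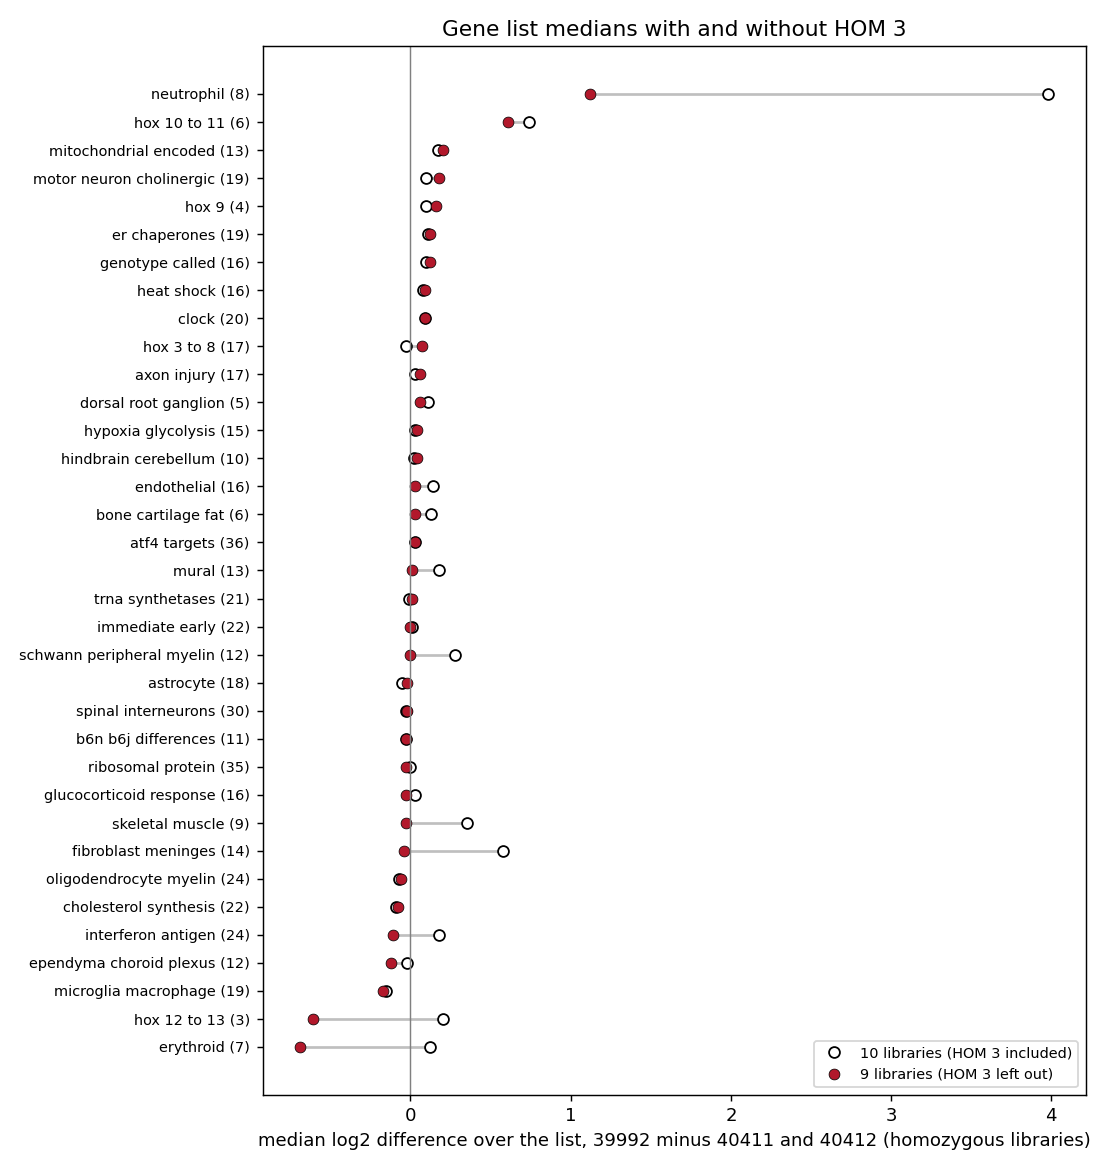
Median log2 difference (39992 minus 40411 and 40412, homozygous libraries) over each gene list, with the number of genes tested in 9 libraries in parentheses. Open points include HOM 3 and filled points leave it out. The neutrophil median drops from 3.98 to 1.12 and the fibroblast median from 0.58 to -0.04 without HOM 3, while that of Hox groups 10 and 11 stays at 0.74 and 0.61. Of the 9 libraries left, HOM 2 has the highest neutrophil sum, 43.2 CPM.

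Several list medians turned sign with HOM 3. Leaving it out moved the median of the fibroblast list from 0.58 to -0.04, that of the interferon and antigen presentation list from 0.18 to -0.11, that of the erythroid list from 0.12 to -0.69 and that of Hox groups 12 and 13 from 0.20 to -0.61. The neutrophil median fell from 3.98 to 1.12, and Hox groups 10 and 11 went from 0.74 to 0.61. Without HOM 3, 1 of 8 neutrophil genes was higher and 1 lower at an unadjusted p below 0.05 by edgeR. The neutrophil list summed to 43.2 CPM in HOM 2 and to 23.7, 23.6 and 25.5 CPM in HOM 1, HOM 4 and HOM 5. In HOM 6 to HOM 10 that sum was 18.7 to 23.8 CPM. In the 9 libraries the summed Schwann cell list was lower in 39992, at 762 to 802 CPM against 816 to 984 CPM (exact two-sided permutation p = 0.0159, adjusted p = 0.0741), and its part in the gene differences was not tested. Over 14 library measures, 0 passed after adjustment in either comparison by the exact permutation test, with 2 at an unadjusted p below 0.05 in 10 libraries and 4 in 9.

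Genes that separate homozygous from wild type libraries were then set beside the prefix difference. Within 40411 and 40412, where no 39992 library takes part, 8 of 16646 genes were called between 5 HOM and 5 WT libraries (0.0481%): Fgf21, Cdsn, Stbd1, B4galnt2, Slc7a1, Chac1 and Cyb5r1 were higher and Cd24a was lower in HOM. Without WT 2 or without WT 3, 5 were called, with Chac1, Cyb5r1 and Cd24a lost, and Cyb5r1 was lost without any 1 of the 10 libraries. Of these 8, Fgf21 was also among the 62 genes of the prefix comparison. Fgf21, a secreted hormone of the amino acid and integrated stress response, was at 5.35, 5.01, 3.84 and 3.84 CPM in HOM 1, 2, 4 and 5, at 1.83 CPM in HOM 3, and at 2.73, 2.40, 2.40, 3.47 and 2.50 CPM in HOM 6 to HOM 10, and was at 0 in all 6 WT libraries. The prefix difference was 0.74 on the log2 scale (SE 0.138, 1.67-fold, adjusted p = 0.0279) without HOM 3 and 0.56 (SE 0.237, adjusted p = 0.508) with it. It rests on 600 counts in 4 libraries and 447 in 5, and was lost without HOM 1, 2, 6 or 7.

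The other genes of that set were called for genotype and not for prefix. Cdsn, the corneodesmosin gene, was at 2.78, 2.79, 1.74, 2.14 and 2.27 CPM in HOM 1 to HOM 5, at 1.69 to 2.14 CPM in HOM 6 to HOM 10, at 0.488 CPM in WT 1 and at 0.244 to 0.553 CPM in WT 2 to WT 6. Its genotype difference within 40411 and 40412 was 2.30 on the log2 scale (adjusted p = 8.15e-05), and its prefix difference 0.37 (adjusted p = 0.229 without HOM 3). Slc7a1, a carrier of cationic amino acids, was at 83.4 to 103 CPM in the 39992 homozygous libraries, 85.9 to 94.5 CPM in the others and 74.0 CPM in WT 1, with a genotype difference of 0.35 (adjusted p = 0.00191) and a prefix difference of 0.14 (adjusted p = 0.115). Cd24a, a surface glycoprotein, was lower in HOM 6 to HOM 10 (50.6 to 59.8 CPM) than in WT 2 to WT 6 (67.8 to 83.2 CPM, -0.44, adjusted p = 0.00494). It was at 55.3 to 78.7 CPM in the 39992 homozygous libraries and at 86.1 CPM in WT 1.

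Over 16 genes that earlier results of these data had called between HOM and WT, a list chosen on these samples and so no independent evidence of its direction, 14 were higher in 39992 without HOM 3. The median was 0.12, 9 had an unadjusted p below 0.05 (13% over all genes tested) and 1 was called (0.37% over all genes tested). With HOM 3, 15 were higher, 4 had an unadjusted p below 0.05 (9.06% over all genes tested) and 0 were called. Their summed level was 527 to 537 CPM in the 4 libraries, 473 CPM in HOM 3, 492 CPM or more in HOM 6 to HOM 10, and 417 to 442 CPM in the 6 WT libraries, so every homozygous library lay above every wild type library. Yars itself was at 107 to 127 CPM in the 39992 homozygous libraries and 115 to 128 CPM in the others (log2 difference 0.03, adjusted p = 0.754 without HOM 3), and a change of 1 residue is not visible in gene counts.

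**Figure D5:**
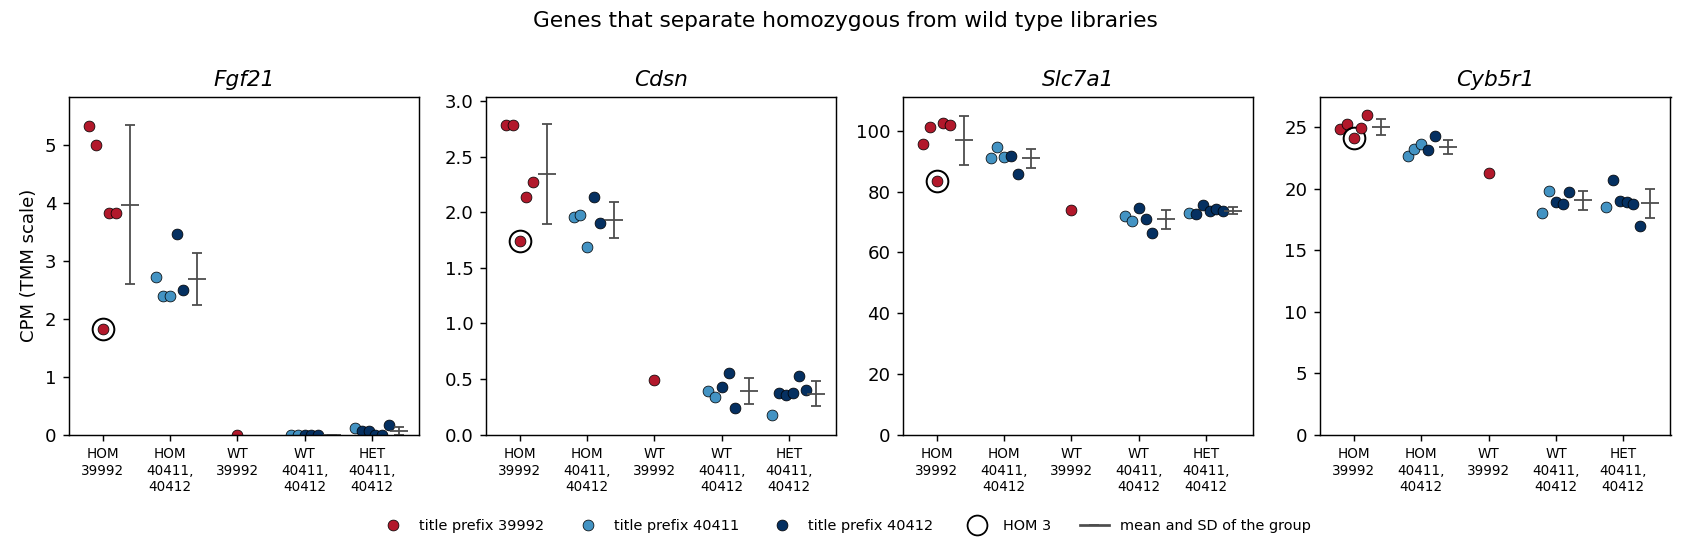
Level of 4 genes called between HOM and WT within 40411 and 40412 in each library (CPM, y axis from 0), by genotype and title prefix. Points are libraries, bars the group mean and SD, and the ring marks HOM 3. Fgf21 is at 0 in all WT libraries, and is at 3.84 to 5.35 CPM in the 39992 homozygous libraries other than HOM 3 and at 2.40 to 3.47 CPM in HOM 6 to HOM 10.

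WT 1 allowed a look at the prefix difference in another genotype, with a single library. Of the 62 called genes, WT 1 lay beyond all 5 wild type libraries of 40411 and 40412 on the same side in 41 (66.1%) and on the opposite side in 0. Among the 16031 tested genes with a rounded log2 difference other than 0.00, WT 1 lay beyond them on the same side in 2912 (18.2%). For 1432 of the 16031 it lay beyond them on the opposite side. In 59 of the 62, WT 1 differed from the mean of those 5 in the same direction, the exceptions being Col4a1, Tprn and Fgf21, the last at 0 in all WT libraries. Over the 16031 genes, 9106 had WT 1 on the same side of that mean. A test of whether the prefix difference itself differed between HOM and WT called 0 of 16951 genes without HOM 3 by edgeR, with 450 at an unadjusted p below 0.05, where 848 would be reached by chance. With 1 wild type library in 39992 this test has little power, and the absence of calls does not show that the difference is alike in both genotypes.

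The prefixes 40411 and 40412, pooled above, also differed from each other. Over all 16 libraries with genotype in the fit, 185 of 16792 genes were called (1.1%), 62 higher in 40411 and 123 lower, and 0 of the 185 were among the 62 genes of the 9-library comparison, a count from which nothing is read, as 1.1% of 62 genes is less than 1 gene. Opalin, an oligodendrocyte membrane protein, was at 44.5, 49.2 and 52.1 CPM in HOM 6 to HOM 8 and at 29.7 and 27.7 CPM in HOM 9 and HOM 10 (log2 difference over the 16 libraries 0.62, adjusted p = 0.0017). P4ha1, a collagen prolyl hydroxylase induced by low oxygen, was at 33.1, 29.7 and 27.4 CPM against 45.9 and 65.5 CPM (-0.73, adjusted p = 0.00812), and Egr3, an immediate early gene, was at 1.92, 1.13 and 1.43 CPM against 2.48 and 2.87 CPM (-0.73, adjusted p = 0.0369). In the homozygous libraries of 39992, Opalin was at 22.4 to 30.5 CPM and P4ha1 at 40.01 to 55.2 CPM. Of the other genes named, Gbp4, Egf, Creb5 and H3f3aos were higher in 40411 (0.60 to 0.82) and Nostrin, Banp and Maff lower (-0.85 to -0.65). The number called fell to 44 without HOM 10, 45 without WT 2, 73 without HOM 9, 86 without HOM 7, 113 without WT 3 and 115 without HOM 8, and the calls of Egr3, H3f3aos, Maff, Creb5 and Egf were each lost without HOM 10.

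The number of genes called depended on which prefix stood on the other side. Against the 3 libraries of 40411 alone, the 4 libraries of 39992 gave 600 called genes, which included 60 of the 62, and against the 2 of 40412 alone they gave 49, which included 16 of the 62. Hoxc10, Hoxa10, Hoxd9, Cd109, Per3, Pdk4, Chodl and Col23a1 were among the 16. With the Xist level of each library in the fit, 9 genes were called in 9 libraries, of which 8 were among the 62: Hoxc10, Hoxa10, Hoxd9, Cd109, C4b, Pdk4, Chodl and Col23a1. Xist was high in 1 of the 4 libraries on one side and in 4 of the 5 on the other. HOM 6 to HOM 8, the libraries of 40411, all had high Xist (483 to 527 CPM). Of 40412, HOM 9 had Xist at 419 CPM and HOM 10 had Y-linked transcripts at 149 CPM. The comparison with 40411 alone therefore differed more in Xist than that with 40412 alone. The part of Xist and Y-linked status in the counts of 600 and 49 was not tested. When each homozygous library was left out of the 9 in turn, between 10 (without HOM 2) and 222 genes (without HOM 10) were called, and 7 of the 62 were called every time: Hoxc10, Hoxa10, Hoxd9, Cd109, Chodl, Slc10a4 and Col23a1. With limma on log2(TPM + 1) in place of edgeR, 20 of the 62 were called, Hoxc10, Hoxa10, Hoxd9, Cd109 and Col23a1 among them. Chodl, Nefl, Nefm, Nefh, Mmp9, Spp1, Slc10a4, Per3, Arntl, Hoxa11 and Fgf21 were not among these 20.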

How the data were processed

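Per the labels' protocols, RNA from spinal cord was purified with TRIzol and miRNeasy columns, and polyA libraries were made with KAPA mRNA kits (a stranded kit and a HyperPrep kit are named) and sequenced 75 bases paired-end on a NextSeq 500 with 2 reagent versions. Which library had which kit or reagent is not given. Bowtie2 2.2.0 and RSEM 1.2.12 are named in the submitters' processing notes. Genome build, annotation and strandedness option remain not given in the sources used here. For each library the authors deposited 1 table with expected counts, TPM and FPKM per gene, per the file headers. For edgeR and DESeq2, the expected counts were rounded. The deposited TPM entered an alternative as log2(TPM + 1), and the authors' FPKM were not used.

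edgeR 4.0.16 (R 4.3.3) was run with TMM factors, filterByExpr, a robust quasi-likelihood fit and Benjamini-Hochberg adjustment over all genes tested, and was tested on simulated data. CPM printed per library are on one TMM scale over all 22 libraries. Fold changes are fitted, not ratios of printed CPM. Gm3020 and Gm10409, called with equal values in every library, are uncertain as separate genes and are not described. Library measures were compared by exact two-sided permutation of the difference in means (scipy 1.17.1), adjusted over 14 measures. Alternatives used DESeq2 1.42.0 and limma 3.58.1. Replicates are numbered in deposition order.

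The comparison and the gene lists were chosen with earlier results of these data known. Genes were named by a fixed rule: up to 12 called genes in each direction in 10 libraries and 6 in 9, with a mean of at least 1 CPM and largest differences first, or the 5 of smallest p where fewer than 5 were called; 2 genes of smallest p per list; the 16 genes of the genotype list; and 5 in each direction in the other comparisons. Slc10a4, Col23a1, Nefm, Nefh, Snap25, Cp, Col4a1, Tprn, Prph, Chat, Nr1d2, Nfil3, Per1, Cry1, Ciart, Hoxd10, Yars and the genes used to describe HOM 3, HET 4 and the tissue were named after their values were seen, as were the promoters. The test of the prefix difference between genotypes, the comparison with WT 1, and the Xist fit of 40411 against 40412 were added after seeing the data.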

Additional observations from a re-analysis of the deposited data

Results flagged for a closer look

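Within each side of 5 homozygous libraries, the library farthest from its neighbour was compared with Dixon's critical value of 0.71 for the gap as a share of the range. Of 90 such groups (named genes and library measures), 14 passed. Chance passes about 1 in 20 of groups that are independent and chosen without sight of the data. These groups share libraries, and the genes and lists were chosen with earlier results known, so that rate does not apply. The named genes also include Aldh1a2 and Hoxa11, which were called only once HOM 3 was left out. HOM 3 accounted for 10 of the 14. Among the 39992 libraries it lay above the rest in the Schwann list (4170 CPM against 762 to 802), the fibroblast list (941 against 431 to 462), the erythroid list (2100 against 295 to 552), the neutrophil list (457 against 23.6 to 43.2) and Hox groups 12 and 13 (27.6 against 2.08 to 7.83). It also lay above in Aldh1a2 (9.05 CPM against 2.64 to 3.14) and Hoxa11 (11.3 against 4.32 to 6.08), and below in Cars (41.5 against 44.9 to 45.4), Wars (123 against 142 to 144) and Aldh18a1 (26.8 against 32.1 to 33.5).

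The other 4 were single genes. Cd109 was at 4.83 CPM in HOM 1 against 4.36 to 4.48 in the rest of its side, and Ssc5d at 1.45 CPM in HOM 2 against 2.35 to 2.56. Slc17a7 was at 5.78 CPM in HOM 7 against 6.87 to 7.28, and Adm2 at 0.439 CPM in HOM 6 against 0.225 to 0.261, the last from a few counts per library. The part that peripheral nerve, blood and connective tissue transcripts play in the values of HOM 3 was not tested.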

How the results depend on the processing

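The number of called genes depended on the analysis, and the cause was not tested. With 10 libraries, where 5 were called, DESeq2 called 115, no filter on low counts 18, limma on log2(TPM + 1) 3, the summed Hox 10 and 11 level as a covariate 0 (it separates the sides by itself), 40411 alone as the other side 56, 40412 alone 3, a spread over all genotypes 29, and genotype as a covariate over all libraries 46. With 9 libraries, where 62 were called, the numbers were 305, 116, 22 and 0, then 600 against 40411 alone and 132 with genotype as a covariate, of which 38 were among the 62, and 9 with Xist as a covariate. For 40411 against 40412 (185), DESeq2 called 407 and limma 23, and for HOM against WT (8) DESeq2 called 20. Leaving out 1 library gave 3 to 62 in 10 libraries (62 without HOM 3, 29 without HOM 9, 16 without HOM 10, 9 without HOM 8, 3 without HOM 2, HOM 5 or HOM 6), 10 to 222 in 9 (10 without HOM 2, 14 without HOM 6, 19 without HOM 7, 25 without HOM 5, 30 without HOM 1 or HOM 4, 105 without HOM 9, 118 without HOM 8), 44 (without HOM 10) to 247 (without WT 5) for 40411 against 40412 (45 without WT 2, 73 without HOM 9, 86 without HOM 7, 113 without WT 3, 115 without HOM 8), and 5 (without WT 2 or WT 3) to 10 for HOM against WT. In 10 libraries, leaving out 1 library moved Cp from -0.314 (without HOM 3, a change of sign) to 0.437 and Col4a1 from -0.251 (without HOM 3, likewise) to 0.316. With the Xist level in the fit, 40411 against 40412 gave 124. Upper-quartile scaling gave 5 in 10 libraries and 63 in 9. No paired analysis was possible because replicate numbers only follow deposition order and pair no libraries across the sides. Of the 5 genes called in 10 libraries, Hoxc10, Hoxa10 and Cd109 were called whichever library was left out. Of these 5, limma kept Hoxc10, Hoxa10 and C4b but not Cd109 or Pdk4, and against 40412 alone only Hoxc10 was kept.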

Other observations

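Within the 16 libraries of 40411 and 40412, which mix 3 genotypes, 11 relations between gene levels were computed, and none passed after adjustment (smallest adjusted permutation p = 0.178). Summed Hox 10 and 11 CPM and Aldh1a2 CPM had Pearson's r = 0.59 (permutation p = 0.0161, 16 libraries) and Spearman's rho = 0.37 (permutation p = 0.155, adjusted p = 0.601). Without HET 4 and WT 4, the 2 libraries farthest from the median Hox level, r was 0.42, and it was 0.31 in the 6 libraries of 40411 and 0.72 in the 10 of 40412. For Chodl, a motor neuron gene, r with the Hox level was 0.08 (permutation p = 0.776, adjusted p = 0.854, rho = 0.29, permutation p = 0.282) and 0.52 without those 2 libraries, with 0.23 in 40411 and 0.14 in 40412. The other motor neuron genes had r = -0.12 (Nefh), 0.11 (Nefm), -0.01 (Nefl), -0.11 (Mmp9) and -0.34 (Spp1), and -0.07, 0.53, 0.56, -0.07 and 0.27 in that order without those 2 libraries, so the motor neuron genes did not share a direction. Hoxd9 had r = 0.11 with the Hox level, and -0.31 without those 2 libraries. Dbp CPM had r = 0.16 with Per3, 0.30 with Nr1d2 and -0.24 with Arntl (rho = -0.06, 0.34 and -0.26). Without WT 4 and HOM 9, the 2 libraries farthest from the median Dbp level, r was 0.21, 0.44 and -0.36. The 11 relations were chosen after seeing the data.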
